A study of Homo sapiens with 6 samples.

Results

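The mitosis genes are 60 human genes that act when a cell enters, carries out and leaves mitosis. They were taken by symbol from a fixed list of mitotic cyclins, kinases, kinesins, kinetochore proteins and anaphase genes, and all 60 were found among the 58395 gene identifiers of the expression table. They are described here in 11 functional groups across 6 RNA sequencing libraries made from M14, a human melanoma line. M14 was kept in non-adherent culture, where it forms floating spheres called melanospheres, and these were dissociated, stained for CD20 and sorted by flow cytometry. CD20 is a B-cell surface antigen encoded by MS4A1, and the comparison asks how the CD20-positive fraction differs from the CD20-negative fraction. The 3 CD20-positive and 3 CD20-negative libraries all come from this 1 line and from the same sphere culture conditions, with no drug or genetic change named in either group. Replicates are numbered 1 to 3 in each group. Nothing in the labels says that they were separate cultures, and the p-values below then cover only the spread among these libraries, which may be technical.

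Mitotic entry is driven by the kinase CDK1 bound to cyclin A or cyclin B and switched on by CDC25 phosphatases. Polo-like and Aurora kinases then help to build the spindle, kinetochores attach chromosomes to it, and the spindle assembly checkpoint holds the anaphase-promoting complex (APC/C, a ubiquitin ligase) until all chromosomes are attached. The APC/C then marks securin and cyclin B for destruction, which frees the protease separase to cut cohesin and lets the cell divide. Most of these genes are transcribed mainly in G2 and mitosis, so in an unsynchronised culture their mRNA comes largely from the cells in those phases.

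The deposited values are FPKM, that is, fragments per kilobase of exon relative to a library size, so levels can be compared between genes. Recovered fragment totals were 15651172 to 17479732 in CD20-positive and 16666543 to 17915936 in CD20-negative libraries. The library sizes implied by the FPKM values were 1.51e+07 to 1.60e+07 in CD20-positive and 1.78e+07 to 1.98e+07 in CD20-negative libraries. Relative to scaling by fragment totals, the deposited values thus put CD20-positive levels higher against CD20-negative ones. No fit here was scaled to the fragment totals. MS4A1 measured 1.24, 0.966 and 1.28 FPKM in CD20-positive and 0.225, 0.263 and 0.403 FPKM in CD20-negative libraries, low in both but without overlap. CD20-positive libraries also differed from CD20-negative ones in broad RNA make-up: mitochondrially encoded genes took 11.9 to 20.6% against 4.25 to 5.73% of fragments, and ribosomal protein genes 2.86 to 4.57% against 7.13 to 7.46%. Among 8 B-lineage markers, CD79A and PAX5 measured at most 0.135 and 0.057 FPKM in any library, and FCRL1 was at 0. In this list 1 of the 8 reached a mean of 1 FPKM, and the markers not named here are not described. None of 8 markers of other leukocytes (at most 0.315 FPKM in any library) and none of 4 endothelial markers (at most 1.20 FPKM in any library) reached a mean of 1 FPKM. CD3D, CD3E, CD2 and KDR were at 0. Of 8 melanocytic markers only PMEL (14.8, 29.5 and 33.8 against 8.73, 19.2 and 16.96 FPKM) and MITF (2.21, 2.19 and 1.72 against 2.07, 2.16 and 2.34 FPKM) reached 1 FPKM, and SOX10, TYR and DCT were at or near 0, so the label of a melanocytic line rests on few defining markers in these data.

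Mitosis genes were on the whole higher in the CD20-positive fraction. The summed level of the 60 genes was 907, 1390 and 1212 FPKM in CD20-positive replicates 1 to 3, against 820.0, 733 and 716 FPKM in CD20-negative replicates 1 to 3. The groups did not overlap, CD20-positive replicate 1 lay nearest to the CD20-negative libraries, and CD20-negative replicate 1 was the highest of its group. The means were 1169.8 ± 244 FPKM and 756 ± 55.8 FPKM (SD, n = 3 each), a ratio of 1.55. The summed level of all genes in the table also did not overlap, at 512113, 338125 and 398980 FPKM in CD20-positive and 287617, 295179 and 276912 FPKM in CD20-negative libraries, a ratio of 1.45. Without the mitochondrially encoded genes that sum was 244487, 205233 and 202099 FPKM in CD20-positive and 241592, 233077 and 224047 FPKM in CD20-negative libraries, which overlapped, with a ratio of 0.933. In bulk libraries a larger share of cells in mitosis and more of this RNA in each cell cannot be told apart.

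The test took in all genes whose level averaged 1 FPKM or more across the libraries (13155 genes, 57 of the 60 mitosis genes) and used limma on log2(FPKM + 1) and Benjamini-Hochberg adjustment over all genes tested. A gene is called here when its adjusted p is below 0.05. Without a replicate block the fit called 0 of 57 mitosis genes, where 0.0076% of all genes tested were called (1 of 13155), and 28 of 57 had an unadjusted p under 0.05, against 9.2% of all genes. voom, a limma fit on recovered fragments with the library sizes implied by the FPKM values, called 0 genes without the block (0.0% of 13141). In the paired fit, which adds the replicate number as a block, 20 of 57 rose in CD20-positive cells, 0 fell and 37 were not called, where 3.19% of all genes tested rose and 2.64% fell. The median log2 change was 0.62 over the 57 genes and 0.00025 over all genes tested, and the change was above 0 in 55 of 57, against 50.1% of all genes. Every CD20-positive library was above every CD20-negative library for 27 of 57 mitosis genes, against 8.87% of all genes, and the reverse order held for 0 of 57, against 6.14%. The 20 called genes had log2 changes of 0.57 to 1.56, SEs of 0.130 to 0.178 and no overlap between groups.

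The number of called genes depended on which libraries entered. Without CD20-positive replicate 1, the fit without the block called 28 mitosis genes, all higher (0.935% of all genes), of which 16 were among the 20, while leaving out any other 1 library gave 0. The paired fit called 46 higher without both libraries of replicate 1 (7.74% of all genes), 0 without those of replicate 2 (0.0%), and 14 without those of replicate 3 (1.32%). Scaling each library to its FPKM total, a total that includes mitochondrial RNA, shifted the median change of all genes to -0.41 and that of the mitosis genes to 0.14, with 38 of 57 above 0. It left 5 higher in the paired fit (AURKB, ESPL1, INCENP, NDC80 and UBE2C), where 0.684% of all genes were higher. It put 1 lower, the checkpoint gene MAD2L1 (-0.74, adjusted p = 0.0262), where 29.1% of all genes were lower. Correction for exon length and GC content left 5 (AURKB, CCNF, CDK1, NDC80 and UBE2C), where 0.448% of all genes were higher. voom with the block called 39, which held all 20, where 6.9% of all genes were higher.

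**Figure D1:**
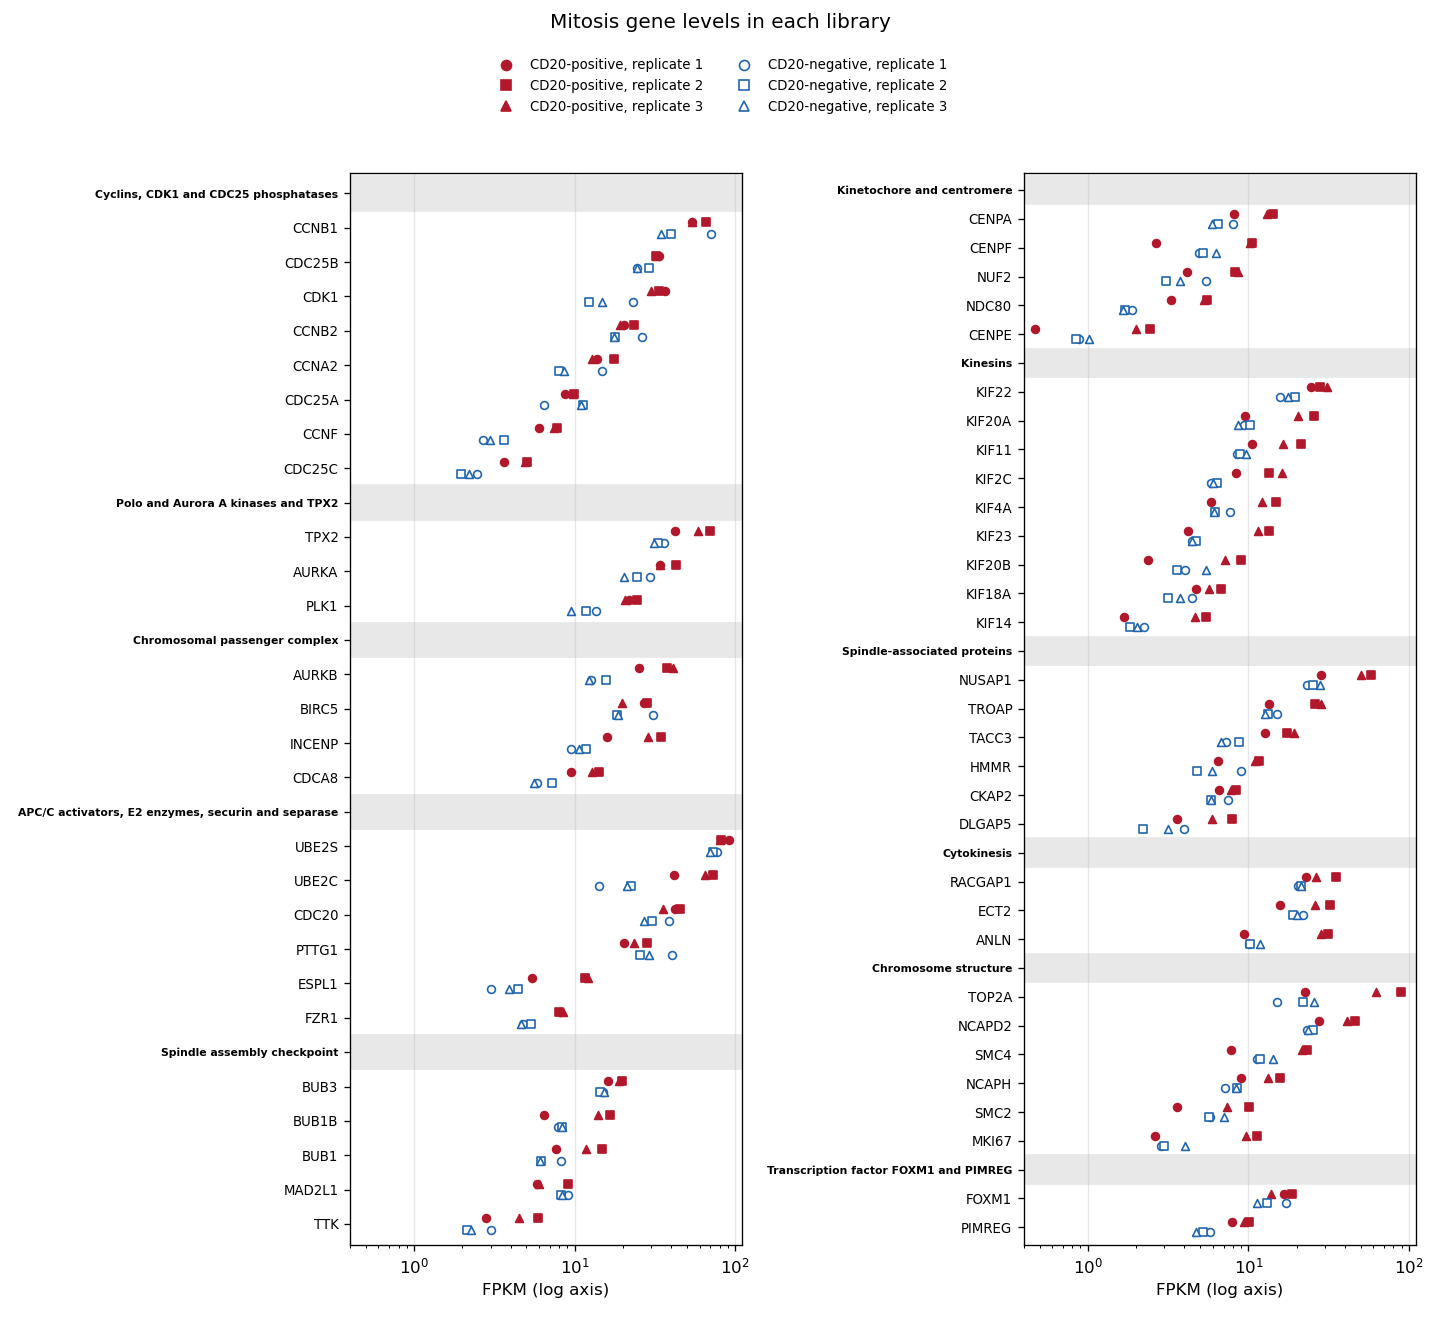
FPKM of the 57 tested mitosis genes in each library on a log axis, by functional group, with CD20-positive libraries as filled red marks and CD20-negative libraries as open blue marks below them, and the replicate number shown by circle, square and triangle. For 27 genes all red marks lie right of all blue marks, and the red circle (CD20-positive replicate 1) is the leftmost red mark for 46 genes.

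Promoter sequence is a feature the genes share that played no part in choosing them. Many G2 and mitosis genes carry a CHR element, the letters TTTGAA or TTCGAA, which is bound by the MuvB complex with B-MYB and FOXM1, and upstream CCAAT boxes, which are bound by NF-Y. Both motifs were searched on both strands in RefSeq windows (GRCh38.p14) of 250 bases before to 50 after each annotated start. TTCGAA reads the same on both strands, and the motifs may share bases with each other, as TTTGAATTGG would. Of the 60 genes 50 had a window. A CHR match stood in 65.6% of the 64 windows of mitosis genes, against 16.4% of 35116 windows of all genes. CCAAT stood in 68.8% against 34.6%, and both in 51.6% against 6.38%. By gene, 13 of 17 called genes and 22 of 30 tested genes that were not called had a CHR match, so the match did not separate them. The 130 bases before the start are printed here for 4 called genes (PLK1, CDK1, INCENP and ESPL1) and for 2 that were not called (BUB1B and CENPA), for CDK1 at the second of its annotated starts. They were chosen to show a CHR match close to the start in genes of different function, with every match in capitals, where ATTGG is CCAAT on the other strand.
PLK1, chr16:23678759-23678888, plus strand: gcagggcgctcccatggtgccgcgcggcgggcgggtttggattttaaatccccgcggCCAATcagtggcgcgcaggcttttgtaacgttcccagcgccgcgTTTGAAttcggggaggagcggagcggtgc
CDK1, chr10:60778348-60778477, plus strand: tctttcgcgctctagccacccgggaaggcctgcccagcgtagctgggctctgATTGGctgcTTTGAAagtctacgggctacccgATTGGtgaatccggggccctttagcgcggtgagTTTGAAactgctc
INCENP, chr11:62123881-62124010, plus strand: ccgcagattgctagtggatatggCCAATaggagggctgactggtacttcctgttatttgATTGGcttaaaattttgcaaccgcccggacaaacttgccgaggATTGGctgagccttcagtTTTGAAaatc
ESPL1, chr12:53268169-53268298, plus strand: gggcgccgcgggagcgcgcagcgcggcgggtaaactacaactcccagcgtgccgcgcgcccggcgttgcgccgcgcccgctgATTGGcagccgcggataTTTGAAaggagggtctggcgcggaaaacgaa
BUB1B, chr15:40160939-40161068, plus strand: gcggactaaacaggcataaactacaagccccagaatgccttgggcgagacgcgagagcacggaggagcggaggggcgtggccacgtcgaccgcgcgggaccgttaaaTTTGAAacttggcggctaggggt
CENPA, chr2:26785926-26786055, plus strand: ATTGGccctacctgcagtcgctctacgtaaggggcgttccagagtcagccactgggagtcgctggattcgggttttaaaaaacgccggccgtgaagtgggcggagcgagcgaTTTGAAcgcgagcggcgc
In PLK1 the CCAAT box began 73 bases and the CHR match 29 bases before the start. ESPL1 had the same arrangement at 48 and 31 bases, with the box on the other strand. INCENP had 3 CCAAT boxes at 107, 71 and 28 bases and a CHR match at 10 bases. BUB1B had a CHR match at 23 bases and no CCAAT in this stretch. A match is a run of letters, not a measured binding site. The windows of AURKB, KIF2C, TACC3 and NCAPH, which rose in the paired fit, held no CHR match.

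Among the 8 cyclins, CDK1 and CDC25 phosphatases, 3 rose in the paired fit and 5 were not called, with a median log2 change of 0.41. The counts of this and each later group stand beside 20 of 57 mitosis genes and 3.19% of all genes tested that rose. CDK1 (ENSG00000170312, chromosome 10, 60778331 to 60794852, GRCh38), the kinase at the centre of mitotic entry, measured 36.8, 33.6 and 29.8 FPKM in CD20-positive replicates 1 to 3, against 23.1, 12.2 and 14.9 FPKM in CD20-negative replicates 1 to 3. All CD20-positive libraries lay above all CD20-negative ones, and the smallest gap was in pair 1, where CD20-negative replicate 1 was the highest of its group (paired fit, log2 change 1.00 ± 0.161 SE, adjusted p = 0.00729). CCNF, cyclin F, a substrate receptor of a ubiquitin ligase that does not activate CDK1, had 6.01, 7.80 and 7.44 FPKM in CD20-positive and 2.70, 3.62 and 2.98 FPKM in CD20-negative libraries, close to the same change in each pair (0.92, 0.93 and 1.08; paired fit, log2 change 0.98 ± 0.130 SE, adjusted p = 0.00302). Of its exon bases 11.8% are shared, mainly with ENSG00000285970 on the opposite strand, so the level of CCNF depends on how shared fragments were counted. CDC25C, the phosphatase that switches on CDK1, had 3.63, 5.04 and 4.88 FPKM in CD20-positive and 2.48, 1.97 and 2.21 FPKM in CD20-negative libraries (paired fit, log2 change 0.77 ± 0.150 SE, adjusted p = 0.0143). CCNB1, which encodes cyclin B1 and was the most abundant of the group, had 53.5, 65.5 and 54.1 FPKM in CD20-positive replicates 1 to 3, against 70.3, 39.7 and 34.3 FPKM in CD20-negative replicates 1 to 3. Its groups overlapped, CD20-negative replicate 1 was the highest of all 6 libraries, and it was not called (paired fit, log2 change 0.32 ± 0.221 SE, adjusted p = 0.457). CDC25B, a phosphatase that acts early in mitotic entry, had 33.6, 31.9 and 32.01 FPKM in CD20-positive and 24.3, 29.2 and 24.5 FPKM in CD20-negative libraries, without overlap but not called (paired fit, log2 change 0.31 ± 0.145 SE, adjusted p = 0.234). The remaining CCNA2, CCNB2 and CDC25A overlapped between groups, with log2 changes of 0.51, 0.043 and 0.028.

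PLK1, Aurora A (AURKA) and TPX2 act at centrosomes and on the forming spindle, and none of the 3 overlapped between groups. PLK1, the polo-like kinase, measured 21.9, 24.3 and 20.6 FPKM in CD20-positive replicates 1 to 3, against 13.5, 11.7 and 9.43 FPKM in CD20-negative replicates 1 to 3. Each pair showed a higher CD20-positive value, by 0.66, 1.00 and 1.05 on the log2 scale in pairs 1 to 3 (paired fit, log2 change 0.90 ± 0.142 SE, adjusted p = 0.00611). PLK1 shares 12.5% of its exon bases, mainly with ENSG00000261266 on the opposite strand, which measured at most 0.197 FPKM. TPX2, which activates Aurora A on spindle microtubules, had 42.4, 69.5 and 58.5 FPKM in CD20-positive and 36.1, 32.9 and 30.99 FPKM in CD20-negative libraries, with the smallest gap in replicate 1 (paired fit, log2 change 0.73 ± 0.178 SE, adjusted p = 0.0362). AURKA had 34.2, 42.5 and 34.2 FPKM in CD20-positive and 29.3, 24.4 and 20.3 FPKM in CD20-negative libraries and came just short of the threshold (paired fit, log2 change 0.57 ± 0.157 SE, adjusted p = 0.0529).

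The chromosomal passenger complex, which corrects wrong attachments and later guides cytokinesis, had the highest median log2 change of the 11 groups at 1.01, with 3 of 4 genes called. AURKB (ENSG00000178999, chromosome 17, 8204733 to 8210600, GRCh38), its kinase Aurora B, measured 25.05, 37.7 and 41.01 FPKM in CD20-positive replicates 1 to 3, against 12.6, 15.6 and 12.3 FPKM in CD20-negative replicates 1 to 3. Every CD20-positive value lay well above the highest CD20-negative one, and replicate 1 was the lowest of its group (paired fit, log2 change 1.27 ± 0.159 SE, adjusted p = 0.00222). INCENP, the scaffold of the complex, had 15.9, 34.3 and 28.6 FPKM in CD20-positive replicates 1 to 3, against 9.49, 11.8 and 10.6 FPKM in CD20-negative replicates 1 to 3, with replicate 1 the lowest in both groups (paired fit, log2 change 1.17 ± 0.165 SE, adjusted p = 0.00415). CDCA8, which encodes borealin, had 9.49, 14.1 and 12.8 FPKM in CD20-positive and 5.84, 7.27 and 5.55 FPKM in CD20-negative libraries (paired fit, log2 change 0.85 ± 0.141 SE, adjusted p = 0.00780). BIRC5, the fourth subunit, survivin, had 27.05, 28.1 and 19.7 FPKM in CD20-positive and 30.7, 18.4 and 18.7 FPKM in CD20-negative libraries. It was not called and its groups overlapped, with CD20-negative replicate 1 the highest library (paired fit, log2 change 0.16 ± 0.163 SE, adjusted p = 0.635).

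Of the 6 genes that run anaphase, 3 rose in the paired fit and 3 were not called (median 0.50). UBE2C (ENSG00000175063, chromosome 20, 45812576 to 45816957, GRCh38), the ubiquitin-conjugating enzyme that starts chains on APC/C substrates, had the largest change of the 57, at 41.3, 72.6 and 64.4 FPKM in CD20-positive replicates 1 to 3, against 14.2, 22.5 and 21.3 FPKM in CD20-negative replicates 1 to 3. Its change was nearly equal in the pairs, 1.48, 1.65 and 1.55 on the log2 scale, and the ratio of means was 3.08 (paired fit, log2 change 1.56 ± 0.142 SE, adjusted p = 0.000288). UBE2S, the enzyme that lengthens these chains and the most abundant of the 57, had 91.2, 81.95 and 80.7 FPKM in CD20-positive and 76.99, 72.4 and 69.2 FPKM in CD20-negative libraries, without overlap but not called (paired fit, log2 change 0.21 ± 0.160 SE, adjusted p = 0.491). ESPL1, separase, had 5.46, 11.5 and 12.1 FPKM in CD20-positive replicates 1 to 3, against 3.02, 4.42 and 3.88 FPKM in CD20-negative replicates 1 to 3, with CD20-positive replicate 1 the nearest to the CD20-negative range (paired fit, log2 change 1.11 ± 0.157 SE, adjusted p = 0.00400). Its inhibitor PTTG1, securin, had 20.4, 28.2 and 23.3 FPKM in CD20-positive replicates 1 to 3, against 40.4, 25.6 and 29.004 FPKM in CD20-negative replicates 1 to 3. PTTG1 had the lowest change of the 57, its groups overlapped, and CD20-negative replicate 1 was far the highest library (changes by pair -0.95, 0.13 and -0.31; paired fit, log2 change -0.37 ± 0.197 SE, adjusted p = 0.313). Of the 2 APC/C activators, FZR1 passed (log2 change 0.63, paired fit, adjusted p = 0.0186) and CDC20 did not (0.36, adjusted p = 0.194).

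None of the 5 spindle assembly checkpoint genes was called (median 0.45). BUB3, a component of the checkpoint complex, had 16.05, 19.6 and 18.9 FPKM in CD20-positive and 15.1, 14.4 and 15.2 FPKM in CD20-negative libraries, which did not overlap (paired fit, log2 change 0.27 ± 0.139 SE, adjusted p = 0.295). BUB1B, which encodes BUBR1, had 6.43, 16.7 and 14.1 FPKM in CD20-positive replicates 1 to 3, against 7.92, 8.33 and 8.33 FPKM in CD20-negative replicates 1 to 3. Replicate 1 of the CD20-positive group was the lowest of all 6 libraries, while replicates 2 and 3 were the highest (paired fit, log2 change 0.45 ± 0.230 SE, adjusted p = 0.323). MAD2L1, the checkpoint protein MAD2, had 5.82, 9.14 and 6.03 FPKM in CD20-positive and 9.13, 8.25 and 8.35 FPKM in CD20-negative libraries, the only gene besides PTTG1 with a change below 0 (paired fit, log2 change -0.28 ± 0.156 SE, adjusted p = 0.325). BUB1 and TTK had log2 changes of 0.63 and 0.61 with overlapping groups.

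At the kinetochore and centromere, 1 of 5 tested genes was called (median 0.64). NDC80, the microtubule-binding part of the outer kinetochore, measured 3.31, 5.51 and 5.25 FPKM in CD20-positive replicates 1 to 3, against 1.89, 1.70 and 1.66 FPKM in CD20-negative replicates 1 to 3. The CD20-negative values lay close together and all CD20-positive values above them (paired fit, log2 change 1.03 ± 0.160 SE, adjusted p = 0.00594). CENPA, the centromeric histone, had 8.08, 14.2 and 13.01 FPKM in CD20-positive and 8.05, 6.45 and 5.91 FPKM in CD20-negative libraries. The replicate 1 libraries were nearly equal between groups, while replicates 2 and 3 stood apart (paired fit, log2 change 0.68 ± 0.213 SE, adjusted p = 0.114). CENPF, a large protein of the outer kinetochore, had 2.66, 10.5 and 10.3 FPKM in CD20-positive replicates 1 to 3, against 4.96, 5.21 and 6.31 FPKM in CD20-negative replicates 1 to 3, so CD20-positive replicate 1 was the lowest library and replicates 2 and 3 the highest (paired fit, log2 change 0.27 ± 0.371 SE, adjusted p = 0.759). NUF2, the partner of NDC80, and CENPE, a kinetochore motor, also had CD20-positive replicate 1 as the lowest of its group and were not called.

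Of 9 kinesins tested, 3 rose in the paired fit (median 0.63). KIF22, a chromosome-arm motor and the most abundant, had 24.4, 28.03 and 30.8 FPKM in CD20-positive replicates 1 to 3, against 15.6, 19.5 and 17.6 FPKM in CD20-negative replicates 1 to 3, with pair changes of 0.61, 0.50 and 0.77 (paired fit, log2 change 0.63 ± 0.139 SE, adjusted p = 0.0245). KIF22 shares 13.01% of its exon bases, mainly with ENSG00000275857 on the opposite strand, which was at 0 FPKM in every library. KIF2C, a depolymerase that helps to correct attachments, had 8.31, 13.4 and 16.2 FPKM in CD20-positive and 5.87, 6.38 and 6.02 FPKM in CD20-negative libraries (paired fit, log2 change 0.90 ± 0.166 SE, adjusted p = 0.0119). KIF20A, a motor of the central spindle, had 9.52, 25.6 and 20.2 FPKM in CD20-positive replicates 1 to 3, against 9.41, 10.2 and 8.61 FPKM in CD20-negative replicates 1 to 3. Its replicate 1 values were nearly equal between groups and the other pairs were apart by more than 1 log2 unit (paired fit, log2 change 0.80 ± 0.258 SE, adjusted p = 0.147). KIF11, the motor that pushes spindle poles apart, also passed (log2 change 0.72, paired fit, adjusted p = 0.0336), and the other 5 kinesins had changes of 0.29 (KIF20B) to 0.82 (KIF23).

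Among 6 spindle-associated proteins, 2 rose in the paired fit (median 0.66). TACC3, which stabilises kinetochore fibres, had 12.7, 17.3 and 19.2 FPKM in CD20-positive replicates 1 to 3, against 7.20, 8.80 and 6.78 FPKM in CD20-negative replicates 1 to 3, with no overlap (paired fit, log2 change 1.01 ± 0.152 SE, adjusted p = 0.00516). NUSAP1, a microtubule-bundling protein, had 28.4, 57.7 and 50.5 FPKM in CD20-positive replicates 1 to 3, against 23.2, 25.1 and 27.9 FPKM in CD20-negative replicates 1 to 3 (paired fit, log2 change 0.76 ± 0.176 SE, adjusted p = 0.0294). The annotation gives 62.2% of the exon bases of NUSAP1 to a second gene on the same strand as well, so its level depends on how shared fragments were counted. TROAP, the second most abundant, had 13.4, 26.2 and 28.3 FPKM in CD20-positive and 15.1, 13.3 and 12.7 FPKM in CD20-negative libraries, with CD20-positive replicate 1 inside the CD20-negative range (paired fit, log2 change 0.62 ± 0.255 SE, adjusted p = 0.233). HMMR, CKAP2 and DLGAP5 were not called, with changes of 0.22 to 0.70.

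None of the 3 cytokinesis genes tested was called (median 0.39). ECT2, which activates the GTPase RhoA at the division plane, had 15.7, 32.1 and 25.9 FPKM in CD20-positive and 21.97, 19.001 and 20.2 FPKM in CD20-negative libraries, with CD20-positive replicate 1 the lowest library (paired fit, log2 change 0.20 ± 0.218 SE, adjusted p = 0.662). RACGAP1, a subunit of centralspindlin, had 22.95, 34.9 and 26.4 FPKM in CD20-positive and 20.4, 21.3 and 21.1 FPKM in CD20-negative libraries, without overlap (paired fit, log2 change 0.39 ± 0.150 SE, adjusted p = 0.157). ANLN, the contractile-ring scaffold anillin, had a change of 0.88 and an SE of 0.372, with pair 1 near 0 and pairs 2 and 3 above 1 (-0.095, 1.53 and 1.20).

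In the group of chromosome structure, 2 of 6 genes rose in the paired fit (median 0.59), both subunits of condensin I, which compacts mitotic chromosomes. NCAPD2 had 27.4, 45.8 and 40.9 FPKM in CD20-positive replicates 1 to 3, against 23.03, 25.4 and 23.4 FPKM in CD20-negative replicates 1 to 3 (paired fit, log2 change 0.62 ± 0.159 SE, adjusted p = 0.0431), and NCAPH changed by 0.57 (adjusted p = 0.0403). The condensin ATPases SMC2 and SMC4 changed by 0.071 and 0.32 and were not called. SMC4 shares 25.6% of its exon bases with TRIM59 on the opposite strand, so its level is uncertain. TOP2A, the topoisomerase that untangles sister DNA, had 22.6, 89.2 and 62.7 FPKM in CD20-positive replicates 1 to 3, against 15.1, 21.9 and 25.7 FPKM in CD20-negative replicates 1 to 3. It had the third largest change of the 57 and the widest CD20-positive range in FPKM, and it missed the threshold narrowly (paired fit, log2 change 1.26 ± 0.267 SE, adjusted p = 0.0508). MKI67, which encodes the proliferation marker Ki-67, was not called (0.88, with -0.089, 1.64 and 1.08 by pair).

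FOXM1, a transcription factor that drives many G2 and mitosis genes, had 16.7, 18.6 and 13.8 FPKM in CD20-positive replicates 1 to 3, against 17.2, 12.97 and 11.2 FPKM in CD20-negative replicates 1 to 3. Its groups overlapped and it was not called (paired fit, log2 change 0.24 ± 0.146 SE, adjusted p = 0.387), and 15.9% of its exon bases are shared with ITFG2 on the opposite strand. PIMREG, a mitotic regulator, had 7.90, 10.1 and 9.34 FPKM in CD20-positive and 5.73, 5.21 and 4.69 FPKM in CD20-negative libraries, with no overlap (paired fit, log2 change 0.70 ± 0.143 SE, adjusted p = 0.0167).

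**Figure D2:**
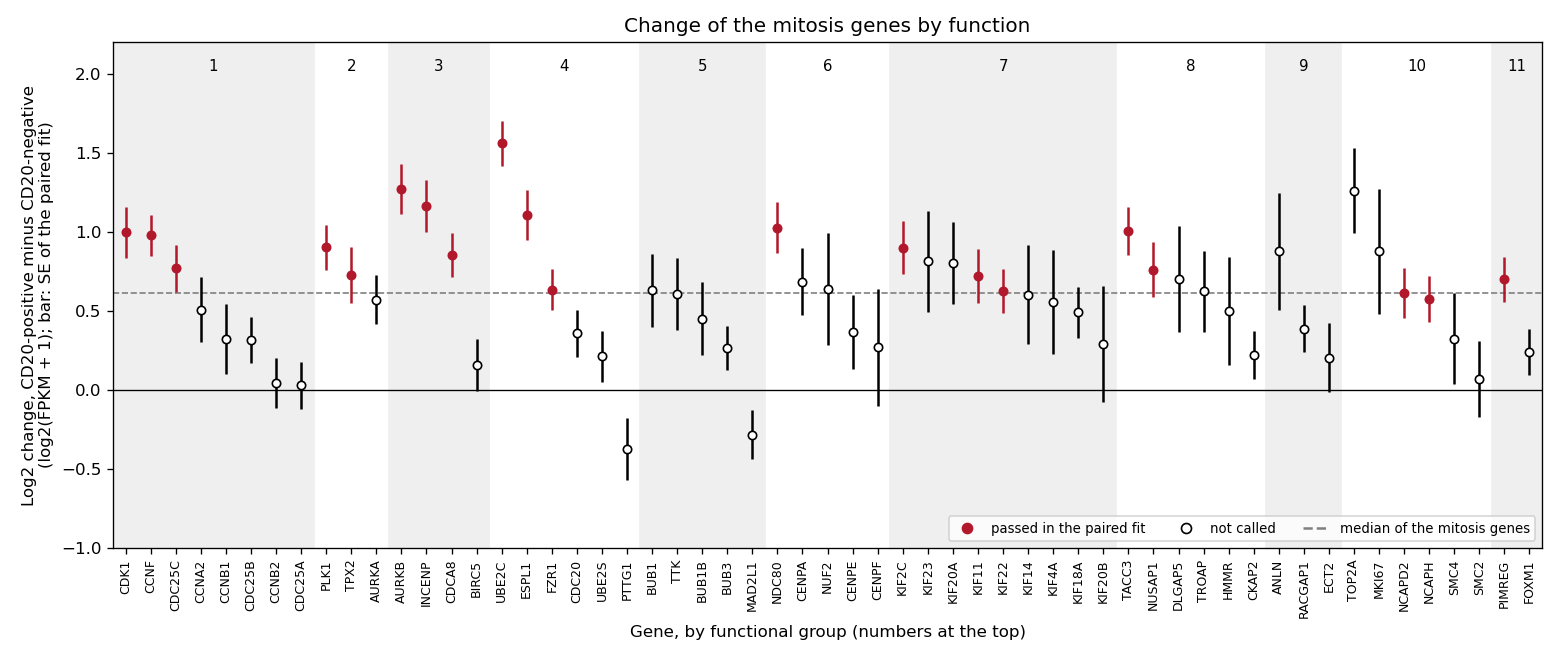
Log2 change (CD20-positive minus CD20-negative, log2(FPKM + 1)) of each tested mitosis gene with the SE of the paired fit, in 11 groups: 1 cyclins, CDK1 and CDC25; 2 PLK1, AURKA and TPX2; 3 chromosomal passenger complex; 4 anaphase; 5 checkpoint; 6 kinetochore; 7 kinesins; 8 spindle-associated; 9 cytokinesis; 10 chromosome structure; 11 FOXM1 and PIMREG. Red points passed in the paired fit, and only PTTG1 and MAD2L1 lie below 0, while 38 of 57 genes lie above 0 under scaling to the FPKM total.

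The change of the mitosis genes was not even across replicates. The median log2 change of the 57 genes was 0.076 in pair 1, 0.93 in pair 2 and 0.77 in pair 3, and the change was above 0 in 31, 56 and 54 of 57. All 3 pairs were higher in 30 of 57, against 21.8% of all genes. The 20 called genes had median changes of 0.61, 1.01 and 1.00 in pairs 1 to 3, and the 37 not called had -0.12, 0.90 and 0.57, with 26 of the 37 below 0 in pair 1. The paired test selects genes with like changes in every pair, so this split between the called and the other genes is a description. CD20-positive replicate 1 was the lowest of its group for 46 of 57 genes, against 40.9% of all genes tested, and CD20-positive replicate 2 the highest for 46 of 57, against 24.99%. CD20-negative replicate 1 was the highest of its group for 28 of 57, against 42.0%. CD20-positive replicate 1 also held the most mitochondrial RNA (20.6% of fragments, against 11.9 and 17.4% in replicates 2 and 3), and the part of this in the pattern was not tested.

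**Figure D3:**
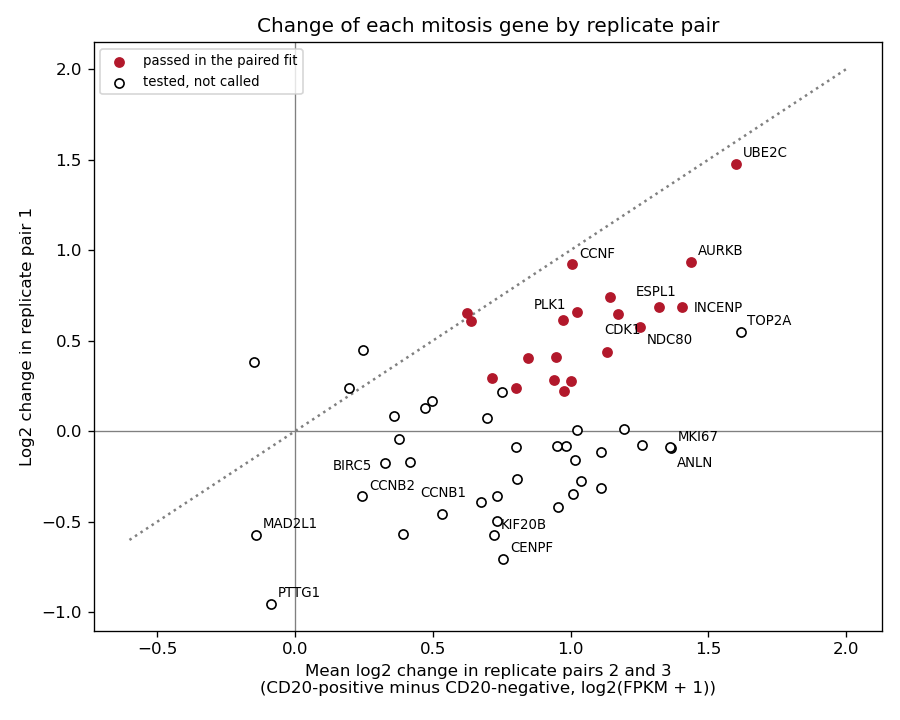
Log2 change of each tested mitosis gene in replicate pair 1 (vertical) against the mean of pairs 2 and 3 (horizontal), CD20-positive minus CD20-negative on log2(FPKM + 1), with equal change on the dotted line. Genes that passed in the paired fit (red) lie above 0 on both axes, and 26 of the 37 others (open) lie below 0 in pair 1.

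Transcript length was looked at because it can move with RNA quality. Across the 57 genes the Spearman correlation of the change with exon length was -0.20, 0.094 and -0.0092 in pairs 1 to 3, against -0.022, 0.29 and 0.098 over 13141 genes. The 16 mitosis genes of over 6000 exon bases had median changes of -0.084, 1.02 and 0.87, and the 41 shorter ones 0.17, 0.92 and 0.75. The median of pair 1 was the lowest in both and was below 0 only in the longer genes. Single shorter genes, such as PTTG1 (-0.95) and CCNB1 (-0.39), were also below 0 in pair 1. The paired fit called 4 of the 16 and 16 of the 41, where 3.19% of all genes tested rose. The part of length in the pattern was not tested beyond the correction given above.

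The 3 genes below the filter were SPC25, KIFC1 and PRC1, with means over all libraries of 0.0761, 0.0482 and 0.526 FPKM. PRC1, which bundles the central spindle, had 0.288, 0.779 and 0.778 FPKM in CD20-positive replicates 1 to 3, against 0.414, 0.487 and 0.412 FPKM in CD20-negative replicates 1 to 3, and it shares 58.4% of its exon bases with ENSG00000284946, a gene on the same strand. That gene measured 0.945, 2.39 and 2.92 FPKM in CD20-positive and 0.536, 1.07 and 1.08 FPKM in CD20-negative libraries, so the level of PRC1 alone is uncertain. SPC25, a partner of NDC80, and KIFC1, a motor that focuses spindle poles, held at most 0.203 and 0.0932 FPKM in any library.

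Further genes of the pathway were read from 6 other lists, whose counts stand beside 3.19% higher and 2.64% lower over all genes tested in the paired fit. Of 37 tested genes with other roles in mitosis, 12 rose in the paired fit and 0 fell, with a median of 0.40 and pair medians of 0.024, 0.69 and 0.53. HJURP, the chaperone that deposits CENPA, had 4.50, 9.26 and 9.17 FPKM in CD20-positive replicates 1 to 3, against 1.52, 2.89 and 2.28 FPKM in CD20-negative replicates 1 to 3 (paired fit, log2 change 1.39 ± 0.142 SE, adjusted p = 0.000581). KIF18B, a motor of astral microtubules, had 12.3, 23.5 and 24.5 FPKM in CD20-positive and 5.92, 9.41 and 7.84 FPKM in CD20-negative libraries (paired fit, log2 change 1.24 ± 0.148 SE, adjusted p = 0.00158). The lowest CD20-positive value lay above the highest CD20-negative value in both.

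The lists of APC/C subunits, of cohesin with the remaining condensin subunits and of MuvB subunits, whose products also work outside mitosis, had medians near 0. In the list of 15 APC/C genes, which holds the inhibitor EMI1 (FBXO5), 0 rose and 1 fell, beside 3.19% and 2.64% of all genes tested, with a median of -0.015: ANAPC15, a small subunit that promotes release of the checkpoint complex, had 5.65, 2.86 and 3.42 FPKM in CD20-positive and 7.71, 4.96 and 5.08 FPKM in CD20-negative libraries, lower in each pair though the groups overlapped (paired fit, log2 change -0.49 ± 0.132 SE, adjusted p = 0.0482). ANAPC13 had 14.8, 9.23 and 8.26 FPKM in CD20-positive and 16.98, 15.4 and 14.1 FPKM in CD20-negative libraries, also overlapping, and missed the threshold (paired fit, log2 change -0.52 ± 0.149 SE, adjusted p = 0.0596). The level of ANAPC15 is uncertain, since 27.1% of its exon bases are shared, mainly with LRRC51 on the opposite strand. Of 14 cohesin and remaining condensin genes 1 rose, CDCA5 (sororin, which protects cohesion), at 18.7, 20.9 and 19.5 FPKM in CD20-positive and 10.7, 14.1 and 13.1 FPKM in CD20-negative libraries without overlap (paired fit, log2 change 0.61 ± 0.136 SE, adjusted p = 0.0247), and the median was 0.011. NCAPH2, of condensin II, had 27.2, 28.3 and 32.1 FPKM in CD20-positive and 16.4, 23.1 and 20.2 FPKM in CD20-negative libraries, also without overlap (paired fit, log2 change 0.54 ± 0.146 SE, adjusted p = 0.0502). The median of 0.011 pools cohesin and condensin genes. The condensin genes in this list all had changes above 0, and none was called. These were 0.79 for NCAPG, 0.54 for NCAPH2, 0.36 for NCAPG2 and 0.20 for NCAPD3. None of 11 subunits of MuvB, B-MYB and DREAM was called, with a median of 0.038. RBL1 (p107) had 4.08, 7.06 and 6.15 FPKM in CD20-positive and 3.90, 4.53 and 5.19 FPKM in CD20-negative libraries (paired fit, log2 change 0.27 ± 0.141 SE, adjusted p = 0.304), and LIN52, of the MuvB core, had 4.07, 5.20 and 3.43 FPKM in CD20-positive and 5.32, 5.09 and 5.07 FPKM in CD20-negative libraries (paired fit, log2 change -0.25 ± 0.141 SE, adjusted p = 0.344). The groups of both overlapped.

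Genes of DNA replication had a median of 0.16, with 2 of 31 higher and 0 lower in the paired fit, beside 3.19% and 2.64% of all genes tested. RRM2, a subunit of ribonucleotide reductase, had 5.40, 9.91 and 9.65 FPKM in CD20-positive and 2.89, 5.07 and 5.38 FPKM in CD20-negative libraries, with the groups just apart (paired fit, log2 change 0.77 ± 0.130 SE, adjusted p = 0.00886). Its level is uncertain, since 20.2% of its exon bases are shared, mainly with AC007240.1 on the same strand. CDC45, part of the replicative helicase, had 15.7, 21.2 and 24.4 FPKM in CD20-positive and 8.84, 17.7 and 14.6 FPKM in CD20-negative libraries (paired fit, log2 change 0.57 ± 0.148 SE, adjusted p = 0.0436), with CD20-positive replicate 1 below CD20-negative replicate 2. In this list pair 1 had the highest of the pair medians (0.27, against 0.13 and 0.11), whereas in the mitosis genes it had the lowest. Of 12 genes in a list of CDK inhibitors and regulators of mitotic entry 2 rose, with a median of 0.15. PKMYT1, a kinase that inhibits CDK1, had 8.22, 10.7 and 15.4 FPKM in CD20-positive and 4.28, 8.28 and 7.33 FPKM in CD20-negative libraries (paired fit, log2 change 0.71 ± 0.151 SE, adjusted p = 0.0207). CDKN2D, a CDK4 and CDK6 inhibitor, had 3.39, 3.78 and 4.84 FPKM in CD20-positive and 1.63, 2.57 and 2.59 FPKM in CD20-negative libraries (paired fit, log2 change 0.62 ± 0.137 SE, adjusted p = 0.0244). The groups of PKMYT1 overlapped narrowly and those of CDKN2D did not. The level of PKMYT1 is uncertain, since 31.6% of its exon bases are shared, mainly with PAQR4 on the opposite strand.

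**Figure D4:**
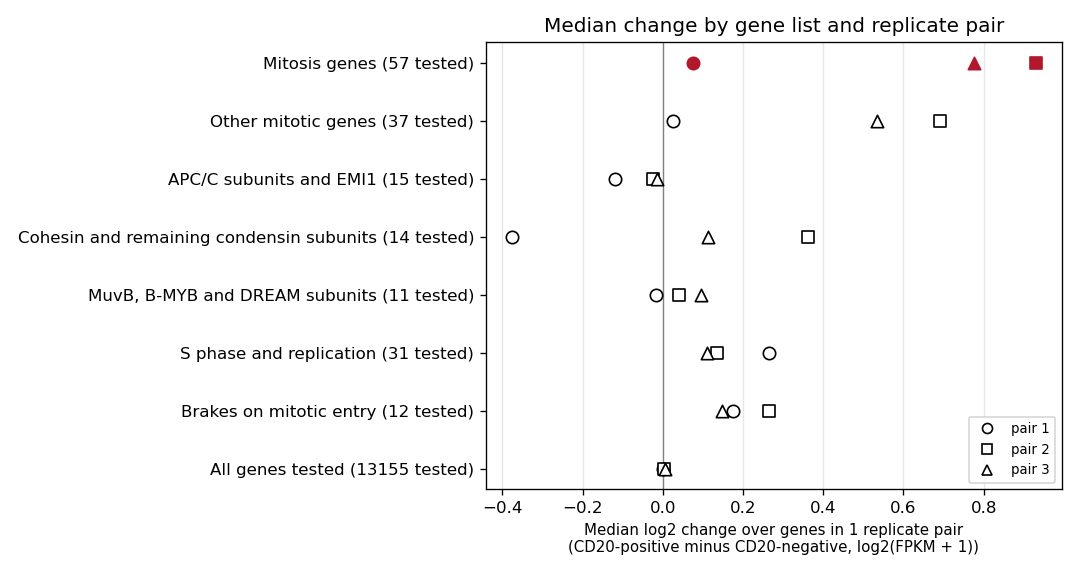
Median log2 change over the tested genes of each list in replicate pairs 1, 2 and 3 (circle, square, triangle), CD20-positive minus CD20-negative on log2(FPKM + 1). The row labelled brakes on mitotic entry holds CDK inhibitors and regulators of mitotic entry, not all of them brakes. The mitosis genes (red) and the other mitotic genes lie near 0 in pair 1 and above 0.5 in pairs 2 and 3, the S phase list lies at 0.11 to 0.27, and all genes tested lie at 0.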

How the data were processed

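RNA of 6 sorted M14 fractions was sequenced as polyadenylated RNA, per the labels' protocols. The deposited table gives 1 FPKM value per gene and library. The unit was taken from the values: multiplied by exon lengths of GENCODE release 29, 98.1 to 98.6% of the low values in each library (up to 20 reads, tolerance 0.02) were whole multiples of 1 step, which gave the recovered fragments. Of 58395 identifiers 58275 matched that release. The tools HISAT2, featureCounts 1.5.0 and DESeq2 and the build GRCh38 (hg38) are named per the submitters' processing notes. Whether counting used strand is not given in the sources used here.

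Genes averaging 1 FPKM or more were tested with limma 3.58.1 (R 4.3.3; trend and robust prior) after taking log2(FPKM + 1), CD20-positive minus CD20-negative, without a replicate block, and Benjamini-Hochberg adjustment at 0.05. On this scale the change of genes with low levels is understated. The deviations from group means correlated at 0.67, 0.24 and 0.51 between same-numbered libraries over 13155 genes, each over 0.1, so the replicate numbers were taken as pairing the samples and the paired fit, in which replicate number is a block, is given beside it. CD20-positive replicate 2 correlated at 0.40 with CD20-negative replicate 3, and CD20-positive replicate 3 at 0.43 with CD20-negative replicate 2, so the values do not tell replicates 2 and 3 apart. Residual degrees of freedom number 2 in the paired fit, with a median prior of 10.2 taken from other genes. The fits were also run on simulated data, in which a replicate effect was either absent or shared by both libraries of a replicate. Such data cannot show whether the pairing holds in these libraries.

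Members, lists and tests were chosen with earlier results of these data known. Genes named with values in every library were, per functional group, the 2 of highest mean, plus the 12 members with the smallest p in the paired fit, those with a change below -0.2, and up to 2 genes per further list by smallest p in the paired fit; any other gene named was chosen after its values were seen. A further marker gene and the sum that holds it are not reported here. Promoter windows are from RefSeq (GRCh38.p14). Alternatives covered the filter, pseudocount, scaling, prior, voom, length and GC content, the block and left-out libraries.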

Additional observations from a re-analysis of the deposited data

How the results depend on the processing

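The count of called genes over all genes tested, 1 (1 higher, 0 lower) without the block, was 767 (420 higher, 347 lower) with the replicate block, and that of mitosis genes was 0 without the block and 20 with it; in this balanced design the block leaves each log2 change as it is and alters only its error. Of all genes, 0 were called with no filter, with voom and with the correction for length and GC content, 2 with a pseudocount of 5, 9 (6 and 3) with quantile normalisation, and 1382 (28 and 1354) with scaling to the FPKM total. Leaving out 1 library gave 0 to 322 genes and 0 to 28 mitosis genes, the highest counts both without CD20-positive replicate 1. With the replicate block, all genes and mitosis genes called were 954 (447 and 507) and 19 of 31 with the filter raised to 10 FPKM, 3923 (90 and 3833) and 6 (5 and 1) with the FPKM total, 942 (684 and 258) and 21 with the FPKM total without mitochondrial genes, 1619 (907 and 712) and 39 with voom, and 82 (59 and 23) and 5 with the correction for length and GC content. In the paired fit without both libraries of a replicate, counts ran from 1 to 2141 genes and from 0 to 46 mitosis genes, being lowest without replicate 2 and highest without replicate 1, with 331 and 14 without replicate 3. What caused these moves was not tested.

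Scaling to the FPKM total, with or without the block, put the median change of the mitosis genes at 0.14, with all genes at -0.41, and the ratio of their summed level at 1.13 in place of 1.55. Of the genes of other lists named with values in every library, it turned RBL1, to -0.15. Further genes of those lists turned as well, such as NCAPG2 to -0.11 and NCAPD3 to -0.26. The same scaling turned 17 of the 57 mitosis genes, none of them called in the paired fit: CCNB1 to -0.19, CDC25B to -0.19, BIRC5 to -0.34, UBE2S to -0.30, BUB1B to -0.0072, BUB3 to -0.22, CENPF to -0.15, ECT2 to -0.29, RACGAP1 to -0.11, FOXM1 to -0.25, CCNB2 to -0.45, CDC25A to -0.44, CDC20 to -0.15, SMC2 to -0.36, SMC4 to -0.15, KIF20B to -0.11 and CKAP2 to -0.22. With 1 library left out, CENPF ran from -0.0081 (without CD20-positive replicate 2) to 0.81 and ECT2 from -0.010 (likewise) to 0.48, and CCNB2, CDC25A, KIF20B and SMC2 also turned without that library, to -0.033, -0.0045, -0.017 and -0.21. Of the mitosis genes, SMC2 turned without CD20-positive replicate 3 (-0.0093), CDC25A without CD20-negative replicate 1 (-0.20), and CCNB2 without CD20-negative replicate 2 (-0.043) or 3 (-0.054). In the paired fit 6 turned without both libraries of replicate 2, BIRC5 to -0.052, CENPF to -0.037, ECT2 to -0.057, CCNB2 to -0.12, SMC2 to -0.26 and KIF20B to -0.12, and CDC25A turned to -0.15 without those of replicate 1. Tested mitosis genes held 67 (CENPE) to 9206 (TOP2A) fragments per library, and the 3 untested genes held 69 or fewer, where depth limits what can be seen.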
